A study of Homo sapiens with 72 samples.

Results

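The endocervical cell line End1/E6E7 (Endo) was exposed to live Gardnerella vaginalis (GV) without any polyamine, and the RNA of these cells is compared here with that of Endo cells left unexposed. The cells were non-treated (NT) before the exposure, so the groups are written NT+GV and NT+noGV. Each group has 3 libraries, chosen by their sample titles, and together they are 6 of the 72 libraries of the study. In NT+GV, 10000000 CFU were added to each well for 24 h, and the wells of NT+noGV received no bacteria. Neither group received putrescine, spermidine or spermine, and all wells held keratinocyte serum-free medium without antibiotics. The remaining libraries come from the other groups of this line and from the ectocervical line Ect/E6E7 (Ecto) and the vaginal line VK2/E6E7 (VK2). Each of these lines is 1 immortalized human culture that carries the E6 and E7 genes of a papillomavirus, grown without leukocytes or stromal cells. Whether the 3 replicates of a group came from separate cultures is not given in the sources used here. The p-values then reflect no more than the spread of these libraries, which may be technical.

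The endocervix is lined by columnar cells that make mucus and face the bacteria of the vagina, of which G. vaginalis is an anaerobe common in bacterial vaginosis. Epithelial cells recognize bacterial lipoproteins and cell wall fragments through receptors such as TLR2 and the NOD proteins. MYD88 and the IRAK kinases, below TLR2, and RIPK2, below the NOD proteins, carry the signal to the kinases that free the transcription factor NF-kB from its inhibitors. NF-kB then switches on chemokines, cytokines and antimicrobial proteins, together with its own inhibitors, which limit the response. Other programmes have their own DNA elements. Interferons act through the interferon-stimulated response element (ISRE), and the factor ATF4 raises genes of amino acid synthesis and transport when amino acids run short or stress kinases are active.

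Stretches of promoter sequence show which of these elements lie in front of genes whose RNA moved together. Each is the 160 bases just before the start of the gene, on the strand of the gene, taken from RefSeq on GRCh38.p14. The first set shows chemokines and NF-kB inhibitors that rose and that hold a match to the kB element GGGNNTTTCC. Others that rose hold none, so the set illustrates the element and does not test it. Capitals mark a match on either strand.
CXCL1, chr4:73869233-73869392 (plus strand): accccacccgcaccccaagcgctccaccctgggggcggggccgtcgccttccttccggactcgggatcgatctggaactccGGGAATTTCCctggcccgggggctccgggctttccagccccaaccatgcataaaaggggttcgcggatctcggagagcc
CXCL2, chr4:74099196-74099355 (minus strand): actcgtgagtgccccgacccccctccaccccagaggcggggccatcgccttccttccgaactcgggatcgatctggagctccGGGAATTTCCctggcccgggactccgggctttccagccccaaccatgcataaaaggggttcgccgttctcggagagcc
CXCL3, chr4:74038690-74038849 (minus strand): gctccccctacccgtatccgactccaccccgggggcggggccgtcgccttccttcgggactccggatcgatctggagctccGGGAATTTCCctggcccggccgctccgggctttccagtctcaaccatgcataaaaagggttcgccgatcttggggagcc
CCL20, chr2:227813682-227813841 (plus strand): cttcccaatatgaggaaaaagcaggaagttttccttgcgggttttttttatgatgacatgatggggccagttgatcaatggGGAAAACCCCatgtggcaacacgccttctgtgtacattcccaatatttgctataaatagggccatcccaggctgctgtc
NFKBIA, chr14:35404750-35404909 (minus strand): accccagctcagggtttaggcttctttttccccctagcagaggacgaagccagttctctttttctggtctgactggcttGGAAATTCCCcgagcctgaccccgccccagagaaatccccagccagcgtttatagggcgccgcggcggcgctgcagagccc
TNFAIP3, chr6:137867099-137867258 (plus strand): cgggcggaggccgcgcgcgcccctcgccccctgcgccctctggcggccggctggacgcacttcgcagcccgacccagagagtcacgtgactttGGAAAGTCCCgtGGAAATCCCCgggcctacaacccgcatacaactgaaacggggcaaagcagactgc
In the second set capitals mark the ISRE core GAAANNGAAA on either strand, in 3 genes that fell (IFIT1, IFIT3 and ISG15) and in 2 that rose (GBP1 and TAP1). Only genes with a match are shown here too. Overlapping matches run together in ISG15 and TAP1.
IFIT1, chr10:89392463-89392622 (plus strand): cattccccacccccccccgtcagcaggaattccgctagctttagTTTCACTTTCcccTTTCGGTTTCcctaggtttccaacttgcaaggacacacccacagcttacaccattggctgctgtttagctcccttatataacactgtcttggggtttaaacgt
IFIT3, chr10:89327837-89327996 (plus strand): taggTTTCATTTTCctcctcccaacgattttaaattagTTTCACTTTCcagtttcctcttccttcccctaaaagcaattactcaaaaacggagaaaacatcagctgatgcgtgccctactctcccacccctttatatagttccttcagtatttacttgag
ISG15, chr1:1013337-1013496 (plus strand): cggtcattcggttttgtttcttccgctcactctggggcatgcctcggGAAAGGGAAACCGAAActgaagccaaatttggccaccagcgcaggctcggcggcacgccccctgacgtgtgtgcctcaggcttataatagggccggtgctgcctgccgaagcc
GBP1, chr1:89065209-89065368 (minus strand): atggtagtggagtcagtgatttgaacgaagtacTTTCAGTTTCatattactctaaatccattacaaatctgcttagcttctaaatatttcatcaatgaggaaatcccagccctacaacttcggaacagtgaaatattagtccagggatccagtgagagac
TAP1, chr6:32853705-32853864 (minus strand): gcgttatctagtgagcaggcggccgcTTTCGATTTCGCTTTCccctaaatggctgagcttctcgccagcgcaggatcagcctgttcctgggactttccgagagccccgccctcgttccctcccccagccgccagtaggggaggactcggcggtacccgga

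The kB element stood in the 250 bases before the start of 473 of 27305 genes with a promoter in the table (1.73%) and the ISRE core in 839 (3.07%). CXCL1, CXCL2 and CXCL3 share the same match, GGGAATTTCC, which begins 79 bases before the start in CXCL1 and CXCL3 and 78 bases before it in CXCL2. Only full matches were counted, so a gene without a match may still hold a site that differs from the string. Of the 5 tested genes in the list of neutrophil chemokines and CCL20, 4 held a full match to the kB element, and CXCL8 did not. CXCL5 and CXCL6, which were too low to test, held the element too, and PPBP, also too low, did not. Of 18 NF-kB inhibitors and feedback genes with a promoter, 4 held it. Only interferon-stimulated genes with a promoter in the table were counted for the ISRE core. It stood before 9 of 13 that fell (69.2%) and before 8 of 13 that rose (61.5%). This element thus did not separate the directions. A match describes the sequence and does not show that a factor was bound.

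The libraries were deep and even. The 3 NT+noGV libraries held 28482179 to 32760893 counts and the 3 NT+GV libraries 30283452 to 35109652, within the range of 20152143 to 42767996 over the study. NT+noGV libraries had counts in 24410 to 24814 genes and NT+GV libraries in 26312 to 27018, so the exposed libraries listed more genes at a similar depth. The share of mitochondrially encoded RNA was 5.57 to 5.68% without GV and 4.92 to 5.002% with it. Endo cells carried RNA of the glandular keratins and of EPCAM and the Müllerian factor PAX8, at 1395 CPM for KRT7, 117 for KRT8, 1917 for KRT19, 114 for EPCAM and 47.5 for PAX8 (mean of NT+noGV, n = 3). CPM are counts of a gene per 1000000 counts of its library after TMM scaling, with no correction for gene length. The gel-forming mucin MUC5B of endocervical glands had only 3 counts over the 3 NT+noGV libraries and 6 over the NT+GV libraries, and the squamous genes KRT5 (12608 CPM), KRT6A (6271 CPM) and TP63 (347 CPM) were also present. The cultures thus carried markers of both glandular and squamous epithelium. Of 12 leukocyte markers, 9 were too low to test, and PTPRC had 3 counts over the NT+noGV and 8 over the NT+GV libraries. The 3 tested, CD68, ITGAM and CSF1R, rose, and the summed level of the list was 38.7 to 41.98 CPM without GV and 78.9 to 81.3 CPM with it, nearly all of it CD68, a lysosomal protein that epithelial cells also make. The fibroblast list (COL3A1 and DCN too low to test) summed to 30.4 to 34.7 CPM without GV and 40.1 to 42.96 CPM with it, mostly COL1A1. The endothelial list (PECAM1 and CDH5 too low to test) summed to 0.696 to 1.18 CPM without GV and 1.85 to 2.29 CPM with it. The part of these genes in the results was not tested.

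Exposure to GV moved a large share of the transcriptome. Of 18741 genes tested, 4818 rose (25.7%) and 5380 fell (28.7%) at an adjusted p under 0.05, the meaning of both words throughout. At a fold change of at least 2, 1308 rose (6.98%) and 431 fell (2.30%), so large changes were more often increases. Genes at low levels are part of both counts, such as ACTL8 (mean log2 CPM -2.724, log2 fold change 4.31) and ADRA1D (-1.698 and -1.824). The balance among well-expressed genes alone was not counted. With library totals alone, with no TMM factor, 5851 rose and 4342 fell at any fold, and 1458 and 340 at least 2-fold. These are bulk libraries, in which fewer cells of a kind and less RNA per cell cannot be told apart. Protein-coding genes made up 907 of these increases and 273 of the decreases, and long noncoding RNAs 321 and 141. All 3 NT+GV libraries lay above all 3 NT+noGV libraries for 5367 genes (28.6%) and below them for 5776 (30.8%). The median log2 fold change over all genes tested was -0.001, against which the gene lists below are read.

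**Figure D1:**
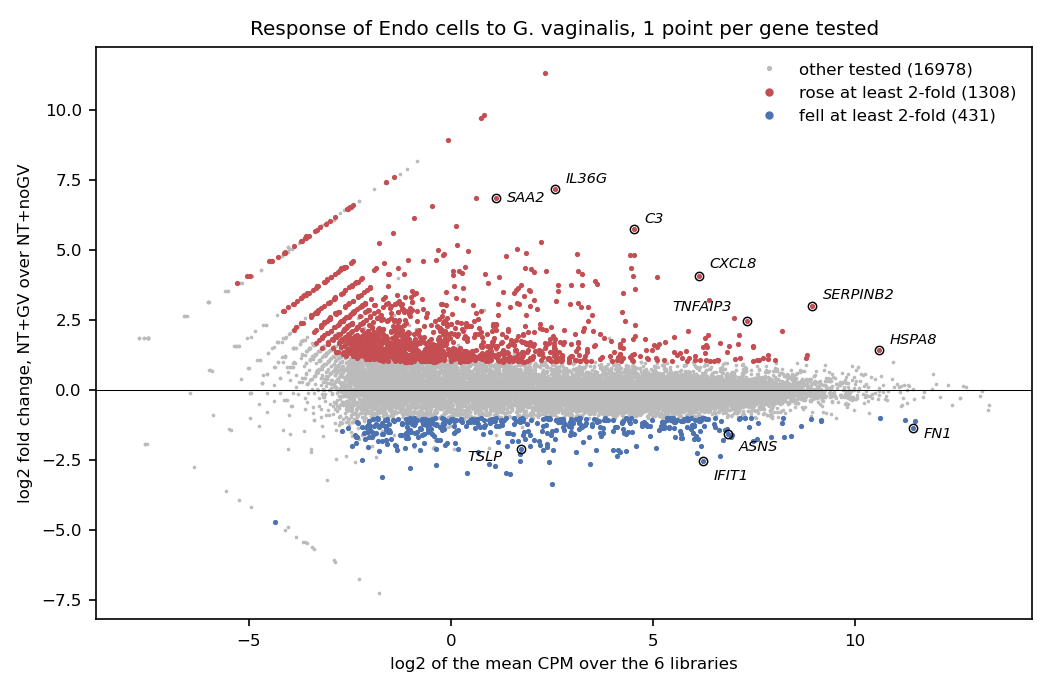
Response of Endo cells to GV. Each point is 1 gene tested, with the log2 of its mean CPM over the 6 libraries on the x axis and its log2 fold change, NT+GV over NT+noGV, on the y axis. Red points rose and blue points fell at least 2-fold, and 24 genes at 0 in all 6 libraries are not drawn. Circles name genes described in the text, and the increases reach further from 0 than the decreases.

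Chemokines that attract neutrophils were among the genes that rose most, and the groups lay far apart in every library. CXCL8, the main neutrophil chemokine of epithelia, was at 7.804, 7.15 and 8.96 CPM in the NT+noGV libraries and at 123, 136 and 142 CPM in the NT+GV libraries. CXCL1 was at 2.198, 2.12 and 3.36 CPM without GV and 40.9, 41.4 and 47.1 CPM with it (log2 fold change 4.06, SE 0.13, adjusted p = 1.76e-16). CXCL3 went from 3.52, 3.297 and 3.895 to 41.1, 46.1 and 43.8 CPM (3.61, SE 0.09). The smallest change of the group was that of CXCL2, from 35.6, 31.01 and 35.9 to 128, 127 and 141 CPM (1.95, SE 0.05). These 3 genes are close copies that bind the receptor CXCR2, and reads they share can be divided between them by the counting. CCL20, which calls dendritic cells and Th17 cells, was at 1.61, 1.99 and 2.47 CPM in NT+noGV and 35.9, 44.2 and 46.2 CPM in NT+GV. All 5 tested members of this list of 8 rose at least 2-fold (median 4.06), and CXCL5, CXCL6 and PPBP were too low to test. Of the other chemokines, 4 of 7 tested rose and none fell, among them the membrane-bound CXCL16 (9.797 ± 0.5903 to 37.6 ± 1.05 CPM, SD, n = 3; 1.94), CXCL10 (0.307 to 1.104 CPM; 1.81) and the eosinophil chemokine CCL26 (1.27).

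**Figure D2:**
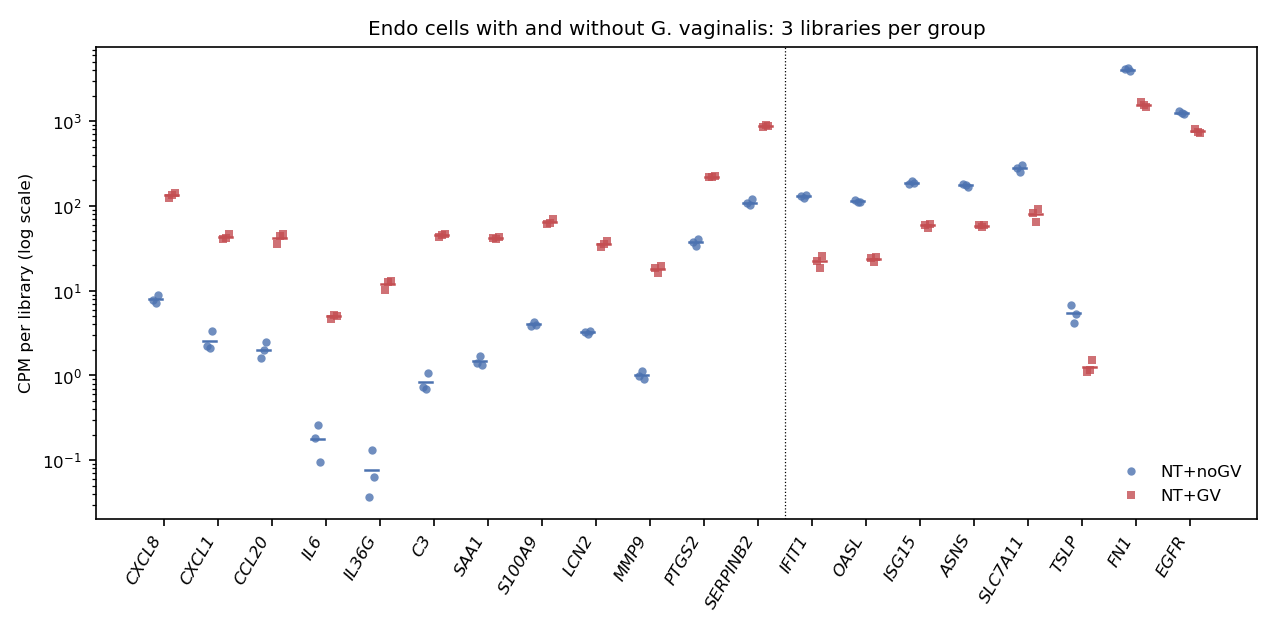
RNA level of 20 genes in each of the 6 Endo libraries. The y axis is CPM on a log scale, blue circles are the 3 NT+noGV libraries, red squares the 3 NT+GV libraries and short lines the group means. The 12 genes left of the dotted line were higher in all 3 NT+GV libraries and the 8 to its right lower, with no overlap between groups.

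The upstream sensing genes moved little next to these targets. TLR2, the receptor of bacterial lipoproteins, was at 43.4, 39.1 and 41.8 CPM without GV and 45.9, 41.9 and 48.4 CPM with it (0.13, SE 0.08, adjusted p = 0.148), and the groups overlapped. It passed the threshold with library totals alone (adjusted p = 0.0371) and with only the 6 libraries compared (adjusted p = 0.0342). The same was true with the replicate number as a block (adjusted p = 0.0102). The adaptor MYD88 was at 10.7, 11.2 and 11.4 CPM without GV and 23.1, 25.5 and 21.4 CPM with it (1.07), IRAK2 at 6.34, 5.58 and 6.14 CPM without GV and 11.3, 13.6 and 12.3 CPM with it (1.05), and the peptidoglycan sensor NOD2 at 2.45, 2.77 and 2.597 CPM without GV and 5.28, 5.49 and 4.85 CPM with it (0.995), with each NT+GV library above each NT+noGV library. IRAK1, which acts early in the pathway, fell (-0.32). In all, 9 of 18 sensing genes tested rose and 2 fell (median 0.27), and TLR4, its partner LY96, TLR9 and LBP were too low to test. Among the kinases that release NF-kB, the alternative kinases MAP3K8 (1.99) and IKBKE (1.18) rose at least 2-fold, while IKBKB, a core kinase, fell by 0.44 and 5 of 11 fell in all (4 with library totals alone).

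NF-kB's own subunits and inhibitors rose together. NFKB2 was at 44.1, 44.6 and 44.2 CPM in NT+noGV and 111, 114 and 109 CPM in NT+GV (1.33, SE 0.06), and its partner RELB at 13.4, 13.5 and 13.4 CPM without GV and 35.2, 31.4 and 32.3 CPM with it (1.29), while RELA (0.40) and NFKB1 (0.32) rose by less, and REL, the 1 subunit of 5 left, did not pass the test. TNFAIP3, the deubiquitinase A20 that ends the signal, was at 53.2, 51.4 and 46.7 CPM and then 279, 288 and 257 CPM (2.45, SE 0.06, adjusted p = 1.71e-19). NFKBIA, which holds NF-kB in the cytoplasm, was at 64.1, 59.4 and 61.2 CPM without GV and 129.7, 126 and 135 CPM with it (1.08). None of these ranges overlapped between the groups. ZC3H12A, an RNase that destroys cytokine mRNA (1.85), BIRC3 (1.83) and SOD2, the mitochondrial superoxide dismutase (1.95), rose too. So did NFKBIZ, a nuclear regulator of NF-kB (1.16). In the list of inhibitors and feedback genes 18 of 20 rose, 10 of them at least 2-fold (median 1.04). TNFAIP8 was the 1 that fell (-0.56).

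In the IL-1 family the epidermal alarmin IL36G had the largest change. It had 7 counts over the 3 NT+noGV libraries and 1174 over the 3 NT+GV libraries, or 0.0366, 0.131 and 0.0633 against 10.1, 12.6 and 13.1 CPM (7.19, SE 0.30, adjusted p = 5.33e-17). The classical members were expressed before exposure and rose by less, IL1B from 41.1, 39.4 and 39.97 to 114, 129.8 and 118 CPM (1.59) and IL1A from 127, 122 and 125 to 255, 260.4 and 266 CPM (1.06). Genes that restrain the family rose beside them, namely the receptor antagonists IL1RN (1.07) and IL36RN (1.12) and the decoy receptor IL1R2 (1.32), as did IL1RL1, the receptor of IL-33 (1.66). IL18 moved the other way, from 76.3, 75.9 and 77.4 to 56.9, 52.6 and 55.02 CPM (-0.48). Of 16 members tested 11 rose and 2 fell (median 1.09).

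Cytokines that act on granulocytes and macrophages followed. CSF2 (GM-CSF) was at 0.806, 1.34 and 1.11 CPM and then 14.4, 15.1 and 14.8 CPM (3.75, SE 0.12), CSF1 at 1.06, 0.914 and 0.918 CPM without GV and 4.45, 4.87 and 3.73 CPM with it (2.18), and IL6 at 0.183, 0.261 and 0.09501 CPM without GV and 4.69, 5.18 and 5.06 CPM with it (4.77, SE 0.30). CSF3 (G-CSF) had 2 counts over the 3 NT+noGV libraries and 299 over the 3 NT+GV libraries, a ratio of 137 with a 95% counting interval of 37.5 to 1135. IL24 was at 0.183, 0.196 and 0.317 CPM without GV and 8.45, 10.6 and 8.699 CPM with it (5.28), IL32 at 0.696, 0.6202 and 0.443 CPM without GV and 15.7, 17.1 and 17.8 CPM with it (4.85), and IL23A, a subunit of IL-23, at 0.403, 0.424 and 0.317 CPM without GV and 1.72, 2.12 and 2.14 CPM with it (2.38). TNF itself stayed rare, with 5 counts over the NT+noGV libraries and 22 over the NT+GV libraries. The epithelial cytokine TSLP, which primes type 2 responses, went down, from 6.85, 4.15 and 5.38 to 1.09, 1.16 and 1.52 CPM (-2.11, SE 0.19), and the growth factor VEGFA from 411, 367 and 402 to 236, 193 and 242 CPM (-0.81). Of the receptors and JAK-STAT genes, 22 of 30 rose and 5 fell. They include the IL-13 decoy receptor IL13RA2 (0.867 ± 0.0848 to 11.8 ± 1.07 CPM, SD, n = 3; 3.75), the TNF receptor TNFRSF1B (2.32), STAT3 (0.65) and the feedback inhibitor SOCS1 (1.56), whereas STAT2, a subunit of the factor that binds the ISRE, fell (-0.49).

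Secreted defence proteins rose by a wide margin. S100A8 and S100A9, which pair as calprotectin and withhold metals from bacteria, both rose. S100A8 was at 1.43, 1.502 and 1.52 CPM without GV and 20.2, 21.5 and 25.1 CPM with it (3.903, SE 0.14), and S100A9 kept to the same pattern at 4.02 (SE 0.10). LCN2, which binds bacterial iron carriers, was at 3.22, 3.07 and 3.36 CPM without GV and 32.4, 35.5 and 38.1 CPM with it (3.46). Elafin (PI3) and SLPI inhibit neutrophil elastase and kill bacteria, and they went from 14.8, 16.8 and 17.2 to 145, 152 and 162 CPM (3.23) and from 87.8, 92.5 and 92.03 to 265, 269 and 275 CPM (1.57). In all 9 of 13 antimicrobial genes tested rose and none fell. The remaining 14 of the 27 on the list, the beta-defensins DEFB1 and DEFB4A among them, were too low to test, and RNASE7 was at 18.8 ± 0.269 and 20.6 ± 1.98 CPM (SD, n = 3; adjusted p = 0.269).

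Acute-phase and complement proteins are best known from the liver. The 4 acute-phase genes of 12 that could be tested rose, and of 9 complement components tested, among 16 on the list, 6 rose and 1 fell. SAA1 was at 1.39, 1.697 and 1.33 CPM without GV and 41.3, 40.5 and 43.5 CPM with it (4.82, SE 0.10), and its close copy SAA2 had 3 counts against 424 (a ratio of 129, 95% counting interval 43.9 to 629). Reads of this pair can be divided between the copies. Complement C3, on which all complement pathways meet, was at 0.733, 0.686 and 1.08 CPM without GV and 43.3, 45.8 and 46.4 CPM with it (5.75, SE 0.11, adjusted p = 6.72e-27). CFB, its partner in the alternative pathway, was at 0.476, 0.457 and 0.602 CPM without GV and 8.08, 9.57 and 11.7 CPM with it (4.24), and the proteases of the classical pathway C1S (2.95) and C1R (1.36) rose as well. C5, the next step after C3, fell from 11.2, 11.03 and 9.94 to 5.08, 4.898 and 4.35 CPM (-1.16). Of 6 regulators and receptors tested, 1 rose and 3 fell. Among them the membrane protector CD46 fell (-0.39) and CD55 rose by 0.14.

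Most enzymes that cut matrix rose. The secreted stromelysin MMP3 was at 0.4397, 0.457 and 0.253 CPM without GV and 6.53, 9.06 and 7.18 CPM with it (4.31), MMP1 at 9.45, 8.81 and 7.73 CPM without GV and 26.96, 31.3 and 30.7 CPM with it (1.78), MMP10 at 17.99, 16.4 and 17.6 CPM without GV and 47.7, 45.7 and 45.7 CPM with it (1.42), and matrilysin (MMP7) rose by 2.43 from 0.276 CPM. MMP14 (-0.31) and MMP15 (-0.49) fell. Over the list 10 of 14 rose, 7 of them at least 2-fold, and 2 fell. Their inhibitor TIMP1 rose (0.80), and TIMP2 (-0.67) and TIMP3 (-0.50) fell. SERPINB2, the intracellular inhibitor of urokinase, was at 107, 103 and 119 CPM and then 862, 912 and 875 CPM (3.01, SE 0.05). SERPINB3 and SERPINB4, a pair of near-identical squamous antigens, went from 1.72, 1.47 and 1.87 to 20.4, 23.5 and 25.2 CPM (3.77) and from 0.183, 0.163 and 0.19001 to 5.51, 6.74 and 5.84 CPM (5.05). Most kallikreins, the proteases that shed squamous cells, fell (6 of 8), KLK5 from 4.62, 3.95 and 4.53 to 1.32, 1.25 and 1.77 CPM (-1.59).

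**Figure D3:**
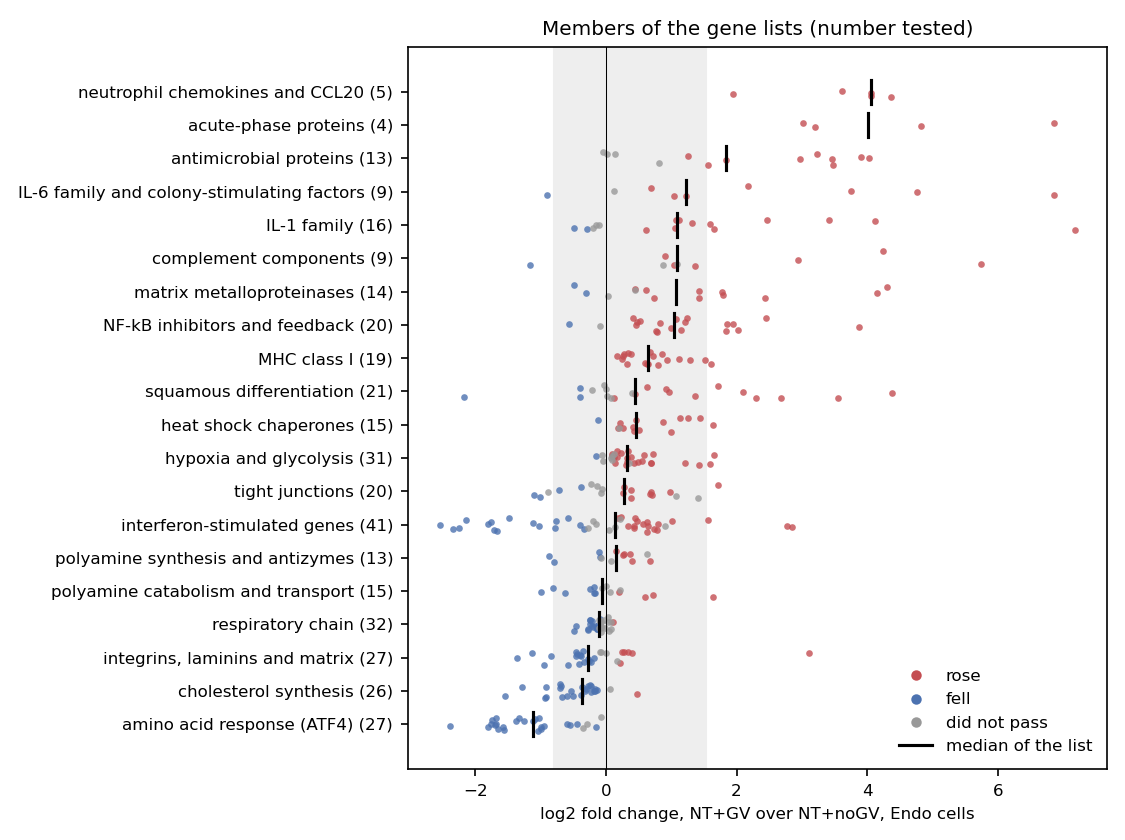
Log2 fold changes of the members of 20 gene lists in Endo cells, NT+GV over NT+noGV (x axis). Each point is 1 tested gene, red where it rose, blue where it fell and grey where it did not pass, black bars are list medians, and the grey band holds the middle 90% of all genes drawn in the plot of fold change against level. Medians run from 4.06 for the neutrophil chemokines and CCL20 to -1.12 for the amino acid response.

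Interferon-stimulated genes were divided. Of 41 tested, 18 rose and 16 fell, and at least 2-fold 4 rose and 11 fell. Those that fell most include sensors and effectors against viral RNA. IFIT1, which binds foreign mRNA caps, was at 131, 125 and 135 CPM in NT+noGV and 22.6, 18.8 and 25.7 CPM in NT+GV (-2.55, SE 0.08, adjusted p = 1.54e-16). IFIT2 was at 172, 171 and 170.2 CPM without GV and 35.9, 28.2 and 36.9 CPM with it (-2.35), and OASL at 116, 112 and 110.05 CPM without GV and 24.5, 21.8 and 25.2 CPM with it (-2.25). The ubiquitin-like modifier ISG15 was at 180.3, 197 and 186 CPM without GV and 59.98, 55.6 and 61.05 CPM with it (-1.67), and the RNA sensor RIGI at 105, 100.2 and 113 CPM without GV and 42.96, 31.03 and 39.8 CPM with it (-1.49). For these 5 genes every NT+GV library was below every NT+noGV library. RSAD2 (-2.14), HERC5 (-1.800), DDX60 (-1.76), IFIT3 (-1.71), IFIH1 (-1.12) and IFI44 (-1.02) were the others that fell at least 2-fold. The guanylate-binding protein GBP1 was at 7.51, 7.67 and 6.84 CPM without GV and 15.04, 12.9 and 16.7 CPM with it (1.02), IFITM1 at 2.56, 3.101 and 3.17 CPM without GV and 7.19, 8.92 and 10.1 CPM with it (1.57), and IRF1, a factor that responds to interferon gamma and to NF-kB, at 17.3, 17.7 and 16.6 CPM without GV and 25.7, 25.4 and 25.1 CPM with it (0.56). MX1, often read as a measure of type I interferon, was at 36.5, 44.7 and 47.7 CPM without GV and 50.3, 43.01 and 57.01 CPM with it (adjusted p = 0.2195).

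Antigen presentation moved in 1 direction. All 19 genes of the MHC class I list rose, 4 of them at least 2-fold (median 0.64). HLA-B was at 41.2, 43.9 and 41.4 CPM and then 116, 119.6 and 127 CPM (1.52, SE 0.05), HLA-E, a ligand of natural killer cells, at 101, 107 and 102 CPM without GV and 192, 202 and 195 CPM with it (0.93), and the peptide transporter TAP1 at 32.5, 33.7 and 33.3 CPM without GV and 71.03, 72.8 and 73.2 CPM with it (1.13). PSMB9, a subunit of the immunoproteasome, was at 2.31, 2.94 and 2.38 CPM without GV and 8.02, 7.73 and 7.58 CPM with it (1.61), and B2M, the shared light chain, at 384, 366 and 396 CPM without GV and 462, 467 and 525 CPM with it (0.34). Reads from HLA genes map to the reference sequence, so alleles unlike it can be counted short, in the same way in both groups since the line is the same. The T-cell inhibitor CD274 (PD-L1) rose from 9.97, 11.5 and 10.5 to 17.2, 19.1 and 18.8 CPM (0.78) and the leukocyte adhesion molecule ICAM1 from 27.7, 28.9 and 27.5 to 52.1, 55.4 and 54.4 CPM (0.95).

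**Figure D4:**
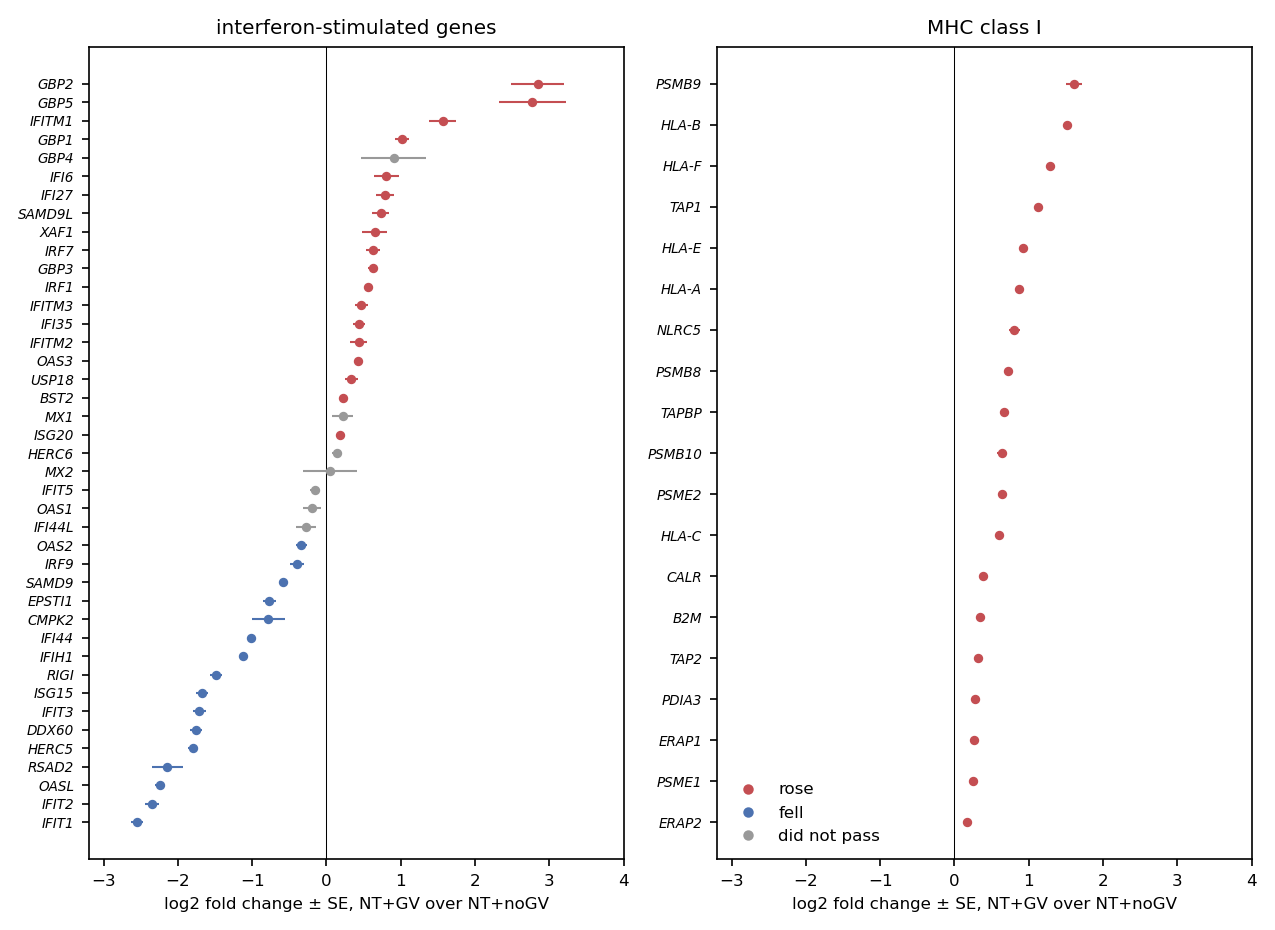
Log2 fold change with SE, NT+GV over NT+noGV in Endo cells, of each tested interferon-stimulated gene (left) and MHC class I gene (right). Red rose, blue fell and grey did not pass. The interferon-stimulated genes run from -2.55 (IFIT1) to 2.84 (GBP2), and the MHC class I genes all lie above 0.

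Most of the genes that respond to ATF4 fell. Of 27 tested, none rose, 24 fell and 17 fell at least 2-fold (median -1.12), beside 2.30% of all genes tested. ATF4 itself was at 516, 530.1 and 529 CPM without GV and 365, 323 and 352 CPM with it (-0.60, SE 0.04). ASNS, which makes asparagine, was at 180.3, 176 and 167 CPM without GV and 59.7, 55.98 and 59.3 CPM with it (-1.58, SE 0.08, adjusted p = 4.41e-13). The serine synthesis enzymes PHGDH (-1.04), PSAT1 (465 ± 17.6 to 145 ± 11.5 CPM, SD, n = 3; -1.69) and PSPH (-1.37) fell in turn. The cystine importer SLC7A11 was at 284, 249.7 and 303 CPM without GV and 82.02, 64.4 and 92.1 CPM with it (-1.81), and the glutamine and alanine importer SLC38A2 at 2214, 1943 and 2249.9 CPM without GV and 1079, 955 and 1126 CPM with it (-1.02). The stress factor DDIT3 (CHOP) was at 87.6, 81.2 and 77.9 CPM without GV and 32.8, 31.2 and 34.4 CPM with it (-1.33), CHAC1, which degrades glutathione, at 74.05, 72.7 and 69.5 CPM without GV and 24.8, 18.7 and 23.5 CPM with it (-1.695), and NUPR1 at 29.8, 27.8 and 29.9 CPM without GV and 5.71, 4.81 and 6.31 CPM with it (-2.38). The groups did not overlap for any of the genes given here by library. The CARE element TGATGNAA, which ATF4 binds, stood before 2 of 22 list genes with a promoter, ASNS and CHAC1, and before 3.19% of all genes.

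Cytosolic chaperones rose in the same cells. HSPA8 was at 828, 858 and 828 CPM without GV and 2156, 2485 and 2152 CPM with it (1.43, SE 0.07) and HSP90AA1 at 1302, 1374 and 1312 CPM without GV and 2605, 2864 and 2487 CPM with it (0.996). DNAJA1, which hands clients to HSP70, was at 133, 135 and 135 CPM without GV and 279, 315 and 287 CPM with it (1.13), and the inducible HSPA1A (1.64) and HSPA1B (1.25), whose coding sequences are near-identical, rose as well. Over the list 13 of 15 rose and 1 fell (median 0.46). HMOX1, which breaks down haem, went from 5.83, 6.37 and 5.95 to 32.5, 35.9 and 32.9 CPM (2.48).

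Metabolic genes moved by small amounts. Of 31 hypoxia and glycolysis genes 23 rose and 1 fell, with a median of 0.32. The hypoxia marker CA9 was at 3.48, 3.72 and 4.15 CPM without GV and 11.1, 12.7 and 12.02 CPM with it (1.65), lactate dehydrogenase LDHA at 651, 651 and 661 CPM without GV and 993, 991 and 968 CPM with it (0.59), and PGK1 rose by 0.72. Cholesterol synthesis genes fell, 24 of 26 (median -0.37), LSS, which closes the sterol rings, among them (-0.93). HMGCS1, an early enzyme of the same pathway, rose (0.48). The cholesterol exporters ABCA1 and ABCG1 were on this list too and fell most, from 96.9, 85.6 and 91.8 to 38.9, 34.6 and 39.6 CPM (-1.28) and from 30.04, 29.1 and 28.3 to 11.8, 8.44 and 9.91 CPM (-1.54). Nuclear genes of the respiratory chain fell in 16 of 32 and rose in 1 (median -0.109), the lowest at -0.49 (NDUFB5), where 28.7% of all genes tested fell. With library totals alone 11 of these genes fell and 4 rose (median -0.039).

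Polyamine genes, the subject of the wider study, changed without a shared direction. ODC1, the rate-limiting enzyme that makes putrescine, was at 198, 206 and 196 CPM and then 312, 335 and 307 CPM (0.67, SE 0.05, adjusted p = 5.33e-14), and SRM, which makes spermidine, at 69.4, 71.5 and 63.8 CPM without GV and 90.5, 91.7 and 88.1 CPM with it (0.40). AZIN1, which shields ODC1 from degradation, rose (0.37), and so did the antizymes OAZ1 (0.16) and OAZ2 (0.28), which have the opposite effect. ARG2, which supplies ornithine, was at 102, 97.7 and 93.96 CPM without GV and 60.1, 53.99 and 54.3 CPM with it (-0.80). SAT1, which acetylates spermidine and spermine for breakdown or export, was at 257, 255 and 261 CPM without GV and 426, 426 and 421 CPM with it (0.72, SE 0.03), and the cationic amino acid importer SLC7A1 at 207, 207 and 199 CPM without GV and 109, 97.5 and 102 CPM with it (-0.99). Over all genes tested 25.7% rose and 28.7% fell. Of 13 synthesis genes 6 rose and 4 fell (6 and 2 with library totals alone). Of 15 catabolism and transport genes 4 rose and 7 fell (5 and 4 with library totals alone). PAOX alone moved at least 2-fold, from 0.3297, 0.392 and 0.09501 to 0.924, 0.736 and 0.901 CPM (1.65).

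The genes of the epithelial surface and its anchorage went separate ways. The membrane mucins MUC1 and MUC16 both rose, MUC1 from 2.97, 2.25 and 2.69 to 8.18, 6.46 and 7.89 CPM (1.51) and MUC16 from 10.7, 10.7 and 11.1 to 24.1, 24.2 and 24.7 CPM (1.17). Of 23 mucin and secretory genes listed, 17 were too low to test, the gel-forming MUC5AC, MUC5B and MUC6 among them. Claudins CLDN4 (18.4 ± 0.972 to 60.5 ± 1.36 CPM, SD, n = 3; 1.71), CLDN1 (0.69) and CLDN7 (0.67) rose, and the junction scaffolds TJP1 (-0.38), PARD3 (-0.73) and MAGI1 (-1.097) fell, so that 9 of 20 tight junction genes rose and 4 fell. Of 23 adherens junction and desmosome genes, none moved 2-fold. Matrix and matrix receptors fell in 17 of 27 and rose in 6. Fibronectin (FN1) was at 4079, 4193 and 3866 CPM without GV and 1663, 1565 and 1481 CPM with it (-1.37, SE 0.06), and the integrin subunits ITGB4 (-0.58), ITGA6 (-0.47) and ITGB8 (-1.14) fell with it. The proteins of cornified squamous cells rose in part. SPRR2D was at 3.15, 2.74 and 3.29 CPM without GV and 19.6, 18.7 and 20.4 CPM with it (2.68), TGM1, which cross-links the envelope, at 108, 116 and 110.5 CPM without GV and 498, 444 and 485 CPM with it (2.09), and involucrin (IVL) at 22.2, 23.5 and 24.3 CPM without GV and 42.5, 44.8 and 48.9 CPM with it (0.96), while KRT4 fell (-2.17) from 0.968 CPM. The simple keratin KRT8 was at 118, 118 and 115 CPM without GV and 255, 238 and 232 CPM with it (1.05), and KRT5 fell from 12432, 12708 and 12685 to 8094, 7373 and 7624 CPM (-0.71). Neither gene stands for its list. Of 7 simple keratin and columnar genes tested 5 rose and 2 fell, and of 8 basal and stress keratins 4 rose and 2 fell.

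Genes outside these lists filled part of the extremes. DHRS2, a short-chain dehydrogenase, was at 1.65, 1.57 and 1.49 CPM in NT+noGV and 42.5, 48.2 and 42.9 CPM in NT+GV (4.83, SE 0.11). CYP1A1, the standard target of the aryl hydrocarbon receptor, was at 0.916, 1.08 and 0.633 CPM without GV and 15.1, 18.2 and 17.1 CPM with it (4.26). The estrogen sulfotransferase SULT1E1 was at 18.4, 19.8 and 18.5 CPM without GV and 3.17, 2.43 and 3.54 CPM with it (-2.64), and the collagen COL8A1 at 4.104, 3.66 and 3.33 CPM without GV and 0.594, 0.566 and 0.497 CPM with it (-2.73). JDP2, a repressor of AP-1 targets, was at 30.8, 29.7 and 30.1 CPM without GV and 7.19, 5.46 and 6.62 CPM with it (-2.24), and the neuronal adhesion gene SLITRK6 at 29.97, 26.1 and 30.4 CPM without GV and 6.93, 6.26 and 6.24 CPM with it (-2.16). TMEM265 was at 0 in all 3 NT+noGV libraries and at 9.502, 9.88 and 10.7 CPM with GV, at least 299-fold higher against a floor of 3 counts over the group. UPK3BL2 was at 14.8, 7.08 and 8.93 CPM without GV and 1.65, 0 and 1.43 CPM with it. It has a close copy, UPK3BL1, and how reads were divided between them was not tested.

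The response of Endo cells was set against those of Ecto and VK2 cells in 1 model of all 72 libraries, which tests the difference of the responses. Of 21195 genes, the log2 fold change was higher in Endo than in Ecto cells by at least 1 for 442 (2.09%) and lower for 459 (2.17%). Against VK2 cells these were 546 (2.58%) and 214 (1.01%). At an adjusted p alone, 14.5% of genes were higher and 13.5% lower than in Ecto cells, and 11.3% and 14.4% than in VK2 cells. Each site is represented by 1 line, so site and line cannot be told apart.

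Complement C3 had the largest difference from Ecto cells among the genes named here. The log2 fold change was 5.74 (Endo), 1.15 (Ecto) and 2.47 (VK2), a difference of 4.59 (SE 0.14) from Ecto and 3.28 (SE 0.17) from VK2 cells. The lines began at different levels, and without GV Endo cells were at 0.848 ± 0.216 CPM, Ecto cells at 84.2 ± 6.23 CPM and VK2 cells at 7.71 ± 0.278 CPM (SD, n = 3). With GV they were at 45.9 ± 1.55, 187 ± 8.35 and 42.6 ± 1.64 CPM, with Endo cells near VK2 cells and below Ecto cells. DHRS2 was at 4.82 (Endo), 1.23 (Ecto) and 0.19 (VK2) (differences 3.597 and 4.63). IL32 was at 4.84 in Endo and 4.59 in VK2 cells (difference 0.25, SE 0.32, adjusted p = 0.636) and at 0.82 in Ecto cells (difference 4.03). IL36G rose in all 3 lines, by 7.18, 4.298 and 3.64, with the highest value in Endo cells (differences 2.88, SE 1.07, and 3.54, SE 0.61). Without Ecto NT+noGV replicate 1 the difference from Ecto cells was 1.796 (adjusted p = 0.587), and it also missed the threshold without Endo NT+noGV replicate 1 (adjusted p = 0.0667) or replicate 3 (adjusted p = 0.0588). MMP3 was at 4.31, 1.49 and 0.65 in the same order of lines (differences 2.82 and 3.66), and the actin bundler LCP1 at 3.34, 0.20 and 1.69 (differences 3.14 and 1.65). CYP1A1 was at 4.26 in Endo and 4.67 in Ecto cells (difference -0.41, SE 0.35, adjusted p = 0.431).

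Other genes fell in Endo cells with smaller changes elsewhere. SULT1E1 was at -2.64 (Endo), -0.18 (Ecto) and -1.47 (VK2) (differences -2.46 and -1.18), COL8A1 at -2.73, -0.33 and -0.55 (differences -2.41 and -2.19), and the matrix gene ECM2 at -2.600, -0.16 and -0.60 (differences -2.44 and -2.001). JDP2 was at -2.24, -0.96 and -0.38 (differences -1.28 and -1.86). ANGPTL4, an inhibitor of lipoprotein lipase, rose by 2.94 in Ecto cells and was at -0.20 in Endo cells (difference -3.13).

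By list, the chemokine response was larger in Endo than in Ecto cells for 4 of 7 genes and larger than in VK2 cells for 4, and smaller for none, with medians of 4.06, 2.84 and 2.300 in Endo, Ecto and VK2 cells. NF-kB inhibitors and feedback genes were higher than in VK2 cells for 14 of 20 and than in Ecto cells for 7. MHC class I genes were higher than in Ecto cells for 15 of 19 and than in VK2 cells for 11 (medians 0.64, 0.19 and 0.38). The fall of the amino acid response genes was deeper than in Ecto cells for 19 of 27 and than in VK2 cells for 23 (medians -1.13, -0.58 and -0.45). Matrix and integrin genes were lower than in VK2 cells for 21 of 27, and interferon-stimulated genes were lower than in VK2 cells for 17 of 42. They were lower than in Ecto cells for 7 and higher for 17. IFIT1, IFIT2 and OASL fell in every line, IFIT2 by 2.35, 2.27 and 2.22 in Endo, Ecto and VK2 cells. Some lists had a median further from 0 in another line than in Endo cells. In the same order of lines the medians were 0.15, 0.55 and -0.02 for immediate early genes. They were 0.53, 0.86 and 0.04 for squamous differentiation and -0.376, -0.437 and -0.081 for cholesterol synthesis.

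**Figure D5:**
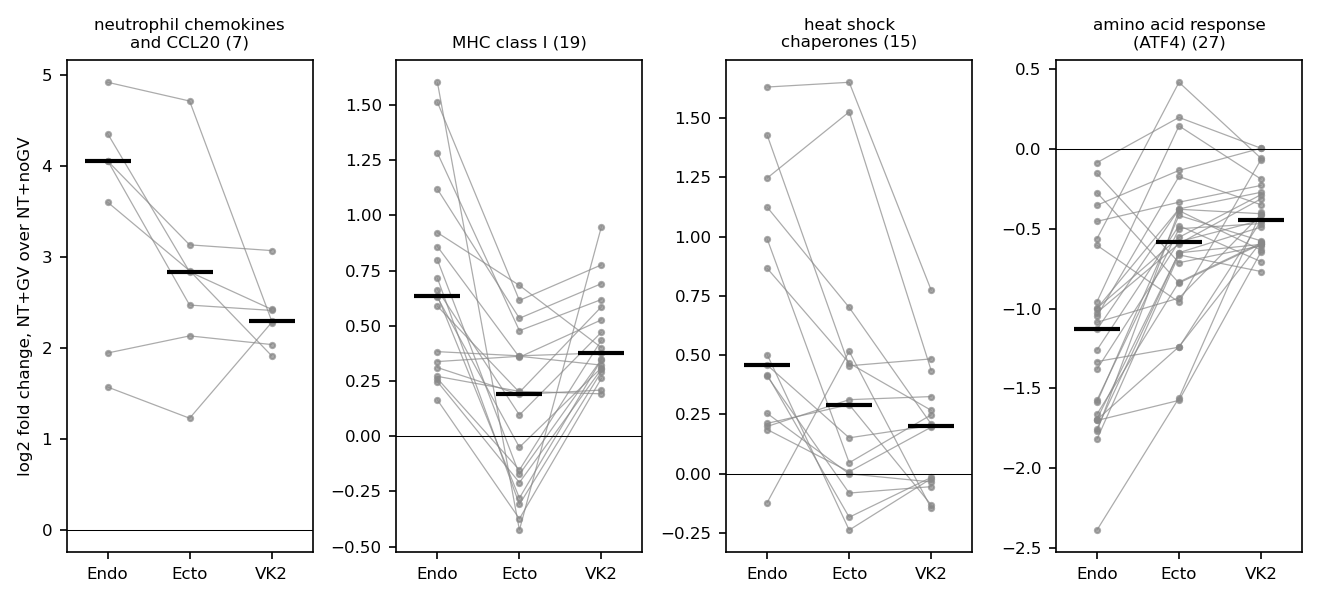
Log2 fold change, NT+GV over NT+noGV, of the members of 4 gene lists in Endo, Ecto and VK2 cells, from the model of all libraries. Each grey line joins the values of 1 gene, black bars are medians, and the y axis differs between panels. The medians lie furthest from 0 in Endo cells in each of these 4 lists, which was not so for every list.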

How the data were processed

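Paired-end reads of ribosome-depleted total RNA (CORALL kit, stranded) were assigned by the authors to GENCODE 44 transcripts of GRCh38.p13 with Salmon and summed per gene. The deposited values are these estimated counts, already whole numbers and not normalised, for 62266 genes. The kit adds unique molecular identifiers, and whether reads were collapsed by them is not given in the sources used here. Here the 24 Endo libraries (8 groups of 3) were fitted together, so that all groups shared 1 estimate of the spread, with edgeR 4.0.16 (TMM factors, filterByExpr by group, robust quasi-likelihood F test, two-sided), and NT+GV was compared with NT+noGV with Benjamini-Hochberg adjustment over all genes tested. A gene rose or fell at an adjusted p under 0.05. Each SE given here is the absolute log2 fold change divided by the square root of the F statistic. It therefore rests on the spread shared by all groups of the fit. Differences of the response between lines were tested in 1 such model of all 72 libraries. DESeq2 1.42.0, other scalings, no filter, a replicate block, other libraries in the fit and the removal of each library were the alternatives. On simulated counts with known changes the scripts were tested before use.

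The 49 gene lists (912 genes) and the comparison were chosen with earlier results of these data known. Genes named are list members, or among the 15 largest increases and 15 largest decreases at least 2-fold whose mean log2 CPM was 1 or more, or the 8 largest differences in each direction from each other line. Genes known by an Ensembl identifier alone were not named, and some list members are counted but not reported by name here. Reads shared by close copies (SAA1 and SAA2, CXCL1 to CXCL3, SERPINB3 and SERPINB4, the SPRR2 genes, HSPA1A and HSPA1B, HLA genes) are divided by the counting and their levels are uncertain. Promoters came from RefSeq on GRCh38.p14, and 27305 were searched on both strands for GGGNNTTTCC, GAAANNGAAA and TGATGNAA. Counting intervals (95%, exact) and the floor of 3 counts cover counting error only. Replicates of a group were never identical and differed beyond counting noise.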

Additional observations from a re-analysis of the deposited data

Results flagged for a closer look

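The response to GV differed between the lines by a test of the difference itself for 442 genes that were higher in Endo than in Ecto cells by at least 2-fold and 459 that were lower, and for 546 that were higher and 214 lower than in VK2 cells. Among the genes named, the log2 fold change in Endo cells exceeded that in Ecto cells by 4.59 for C3, 4.03 for IL32, 3.597 for DHRS2, 3.14 for LCP1, 2.88 for IL36G and 2.82 for MMP3. It exceeded that in VK2 cells by 4.63 for DHRS2, 3.66 for MMP3, 3.54 for IL36G, 3.28 for C3 and 1.65 for LCP1. Against Ecto cells the difference was -3.13 for ANGPTL4, -2.46 for SULT1E1, -2.44 for ECM2, -2.41 for COL8A1 and -1.28 for JDP2. Against VK2 cells it was -2.19 for COL8A1, -2.001 for ECM2, -1.86 for JDP2 and -1.18 for SULT1E1. Groups of 3 libraries were too small for a test of outlying samples.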

How the results depend on the processing

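At least 2-fold, 1308 genes rose and 431 fell in the main test, 1253 and 373 with DESeq2, 1588 and 494 with no filter on low counts and 982 and 366 with only the 6 libraries compared. A fold change of at least 4 left 469 and 44, no fold threshold gave 4818 and 5380, and a test against a change of 1.5-fold gave 1063 and 651, by the construction of each threshold. Leaving out each library in turn gave 1255 to 1353 and 400 to 460 over all genes, 138 to 148 and 41 to 46 over the lists, 429 to 488 and 374 to 451 for the difference from Ecto cells and 467 to 548 and 181 to 232 for that from VK2 cells. Scaling moved the median of all genes tested from -0.001 to at most 0.068 (library totals alone). Of 2304 values of the 192 genes named in Endo cells under these alternatives 2293 kept their direction and their side of the threshold, and of 396 between lines 392. Among the exceptions TLR2 passed with library totals alone (adjusted p = 0.0371), with only the 6 libraries (adjusted p = 0.0342) and with the replicate block (adjusted p = 0.0102). UPK3BL2 did not pass with DESeq2 (adjusted p = 0.172). The difference of IL36G from Ecto cells did not pass with no filter or without any 1 of 3 libraries. AREG, which did not pass in any of the alternatives, turned from -0.003 to 0.023 with DESeq2 and with its size factors, 0.067 with library totals alone and 0.019 with only the 6 libraries, and lay between -0.031 and 0.05 with each library left out. The cause was not tested. The sign of the median turned with the scaling for the NF-kB kinases, polyamine catabolism, EGFR, inflammasome, unfolded protein and mitochondrially encoded lists, whose medians lay near 0. The balance of rises and falls turned for adherens junctions (6 and 7 in the main test, 9 and 5 with library totals alone) and for polyamine catabolism (4 and 7, then 5 and 4). Low counts limit TNF, CSF3, SAA2 and IL36G in NT+noGV libraries.

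The replicate numbers are not stated to mark a shared day or culture. Over 10380 genes the deviations of same-numbered NT+GV and NT+noGV libraries from their group means correlated at 0.03, 0.25 and 0.48 for numbers 1, 2 and 3, and NT+GV replicate 1 correlated best with NT+noGV replicate 2 (0.26), so the numbers were not taken to pair the libraries. With the replicate number as a block 1322 genes rose and 428 fell at least 2-fold, and among the genes named it changed only the call of TLR2 (adjusted p = 0.0102).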

Other observations

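Further lists of genes describe growth control, stress and cell fate in the same comparison. Their counts are read beside all genes tested, of which 25.7% rose and 28.7% fell. Of 17 genes of the EGF receptor, its ligands and its feedback regulators, 7 rose and 6 fell. The ligand AREG was at 491, 494 and 471 CPM without GV and 499.9, 484 and 468 CPM with it (-0.003, adjusted p = 0.958). The other ligands on the list rose. EPGN rose by 2.08 and BTC by 1.11. HBEGF was at 29.5, 32.4 and 31.9 CPM without GV and 74.9, 84.8 and 84.8 CPM with it (1.38), EREG at 28.9, 24.9 and 31.2 CPM and 60.3, 64.3 and 79.6 CPM (1.26), and TGFA at 75.3, 76.9 and 73.98 CPM and 144, 152 and 144 CPM (0.96), whereas EGFR went from 1305, 1265 and 1213 to 806, 750.1 and 734 CPM (-0.72) and ERBB2 fell by 0.49. The feedback phosphatase DUSP6 (-0.999) and the antagonist SPRY1 (-1.14) fell too. Prostaglandin synthesis rose at PTGS2, the inducible cyclooxygenase, from 37.4, 33.5 and 40.7 to 219.6, 219.7 and 226 CPM (2.58), and at PTGES (0.62), and the prostaglandin E2 receptors PTGER2 (-0.71) and PTGER4 (-0.50) fell. Of 22 immediate early genes, 11 rose and 7 fell, FOSL1 among the first (1.13) and KLF4 among the second (-0.56).

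Of 28 NRF2 targets, 13 rose and 10 fell. The aldo-keto reductases AKR1C1 (0.91) and AKR1B10 (1.63) and the glutathione synthesis subunit GCLM (0.95) rose, and glutathione reductase GSR (-0.60) and the pentose phosphate enzyme TKT (-0.48) fell. The unfolded protein response was divided, with 8 of 18 up and 8 down, XBP1 from 161, 170.5 and 154 to 87.5, 80.3 and 84.5 CPM (-0.95). Of 37 genes of DNA replication and mitosis 22 rose and 9 fell, MKI67 by 0.47 and RRM2, which makes deoxynucleotides, by 0.96, and the cell cycle inhibitor CDKN1A rose as well (0.50). In the death genes PMAIP1 (NOXA) went from 170.04, 142 and 187 to 63.1, 49.8 and 77.02 CPM (-1.398), while BAK1 rose (1.04). Of 14 Notch pathway genes 5 rose and 7 fell (5 and 5 with library totals alone). The ligands JAG1 (-1.01) and JAG2 (-0.74) and the target HEY1 (-1.61) fell, and the ligand DLL4 (1.21) and the target HEYL (1.73) rose. Among the factors of epithelial-mesenchymal transition SNAI1 rose (1.81) and SNAI2 fell (-1.31), each with no overlap between groups. Metallothionein MT2A was at 1976, 2072 and 1958 CPM and 1550.0, 1542 and 1525 CPM (-0.38).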
